A study of Arabidopsis thaliana with 2 samples.

Results

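Leaves become flat because an adaxial (upper) and an abaxial (lower) domain meet along the margin of the primordium. In *Arabidopsis* the class III HD-Zip factors specify the adaxial side, KANADI and YABBY factors act abaxially, and small RNAs keep the domains apart. Blade outgrowth then depends on growth regulators that act in the young lamina. Described here are 6 genes of this program, *YAB3*, *YAB5*, *PHV*, *AGO7*, *JAG* and *AN*, out of 13356 genes to which the probe annotation used here assigns an ATH1 probe set of their own. They were chosen by name as leaf polarity and lamina growth genes that the probe annotation covers, with earlier results of these data known. Each is represented by a single probe set.

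The RNA came from margins dissected from mature leaves of soil-grown plants of the Ler ecotype, kept at 23°C with 16 h light and 8 h dark. The study's methods give the genotype as *35S:miR319a/35S:amiR-NGA*, while the sample labels do not name it. In these plants the constitutive 35S promoter drives both a microRNA against *CIN-TCP* genes and an artificial microRNA against the *NGA* genes. There was 1 group of 2 biological replicates with 1 Affymetrix array each, and no wild-type margin or other tissue was used here. The question the margins can answer is therefore which polarity and growth transcripts were detected in them and how far the replicates differed. No p-value is given, because no conditions are compared, and n = 2 for every SD.

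The values are MAS5 signals, linear intensities of 1 probe set, and both arrays have a median of 50. Background was taken from 6 genes of pollen and root, which were also chosen with earlier results of these data known. The 95th percentile of their signals, 7.21 in replicate 1 and 18.3 in replicate 2, served as the bound, and a gene above it in both arrays was counted as above background. Of all 13356 genes, 60.1% passed this bound. In replicate 1, 70.3% did and in replicate 2, 61.2%. The control transcripts were read at their 3′ and 5′ ends, and a larger 3′ excess can come with degraded RNA. That excess was larger in replicate 2 for actin (14.3 against 8.10), ubiquitin (3.04 against 1.66) and GAPDH (1.52 against 1.10).

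All 6 genes lay above background in both arrays. Their median signal was 223.4 in replicate 1 and 222.1 in replicate 2. Over the 13356 genes it was 33.2 and 36.7, and over all 22810 probe sets it was 50 in both arrays. The list is short and was chosen by name with earlier results of these data known, and 60.1% of all genes passed the same bound. The count and the medians therefore describe the list and are not a contrast with other genes. The clearest signal relative to the bound was that of *YAB3*, at 69.8 times the bound in replicate 1 and 21.2 times in replicate 2. The weakest was that of *AGO7*, at 2.30 and 1.61 times the bound.

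**Figure D1:**
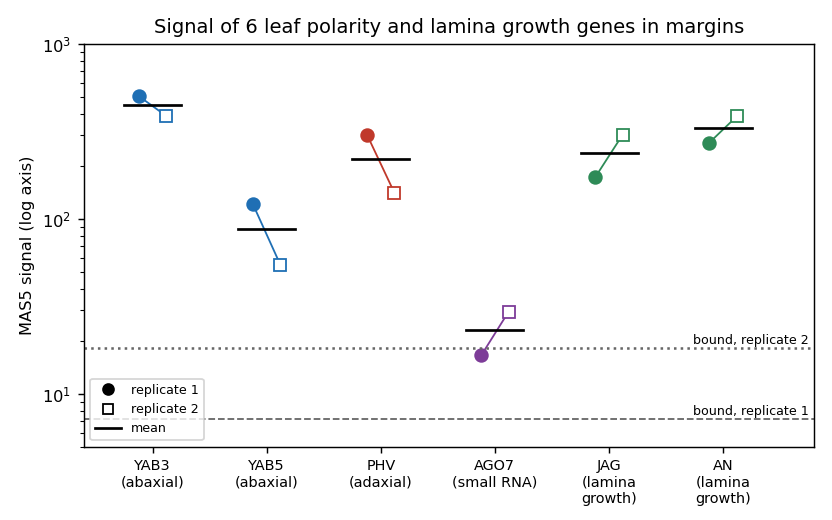
MAS5 signal (log axis) of the 6 genes in replicate 1 (filled circles) and replicate 2 (open squares), with the mean of both as a black bar and the background bound of each array as a broken or dotted line. Every gene is above the bound of its own array, and *AGO7*, at 16.6 in replicate 1 and 29.5 in replicate 2, is closest to it.

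*YAB3* (AT4G00180) encodes a YABBY factor that acts with *FIL* on the abaxial side and promotes lamina growth. Its signal was 503.2 in replicate 1 and 387.9 in replicate 2, a mean of 445.6 ± 81.6 (SD, n = 2). In replicate 1, 96.5% of genes had a lower signal and in replicate 2, 93.4% did, and it ranked 472 and 887 from the top among the 13513 probe sets with 1 gene. Its spread was the narrowest of the 6 genes, with a coefficient of variation of 18.3%.

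*YAB5* (AT2G26580), a second YABBY gene that is expressed abaxially and overlaps with the others in function, gave 121.2 in replicate 1 and 54.7 in replicate 2. The mean was 88.0 ± 47.0, a coefficient of variation of 53.4%, which was the widest among the 6. Replicate 1 placed it above 74.0% of genes and replicate 2 above 56.8%, with ranks of 3482 and 5785. Both YABBY genes were thus detected, and both were lower in replicate 2, *YAB3* by 1.3-fold and *YAB5* by 2.21-fold.

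*PHV* (AT1G30490) is the adaxial gene of the set. It encodes a class III HD-Zip factor, a sister of *PHB*, whose transcript is cleared from the abaxial side by microRNAs. Its signal was 302.2 in replicate 1 and 140.8 in replicate 2, a mean of 221.5 ± 114.1. That placed it above 91.7% of genes in replicate 1 and above 77.2% in replicate 2, at ranks 1106 and 3053. *PHV* was 2.15-fold lower in replicate 2, a fold close to that of *YAB5*, although these genes belong to opposite sides of the leaf.

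An adaxial gene and abaxial genes were thus both above background in the dissected margins of mature leaves. The strip was taken whole, so the arrays do not show on which side each transcript lay. In bulk tissue, fewer cells of a type and less RNA per cell cannot be told apart. The log2 ratio of replicate 2 over replicate 1 was -0.38 for *YAB3*, -1.15 for *YAB5* and -1.10 for *PHV*. The mean ratio of the abaxial genes thus stood 0.34 above that of the adaxial gene. That difference came from *YAB3*, since *YAB5* lay slightly below *PHV*. The difference was smaller than the SD of the log2 ratio over single genes above background, 0.68 log2 units.

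**Figure D2:**
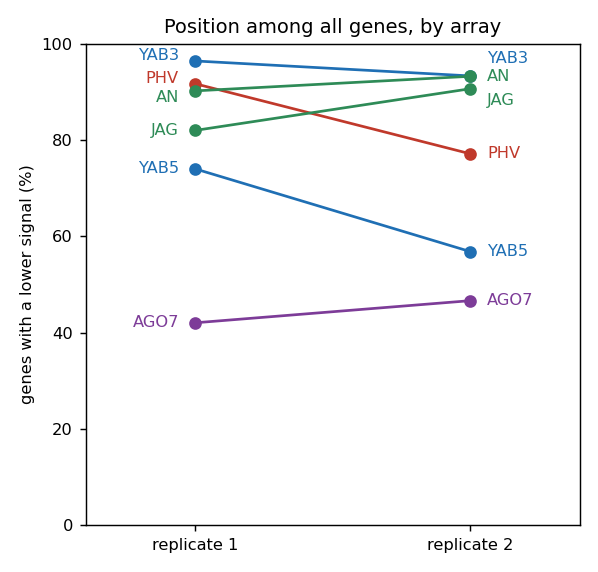
Percentage of the 13356 genes with a lower signal than each of the 6 genes (vertical axis) in replicate 1 and replicate 2, with lines joining the values of a gene. *YAB5* (74.0% and 56.8%) and *PHV* (91.7% and 77.2%) have a lower position in replicate 2, while *YAB3* and *AN* stay above 90% in both.

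*AGO7* (AT1G69440) links the sides. It encodes the Argonaute protein that binds miR390 and starts production of trans-acting siRNAs from *TAS3* transcripts, and these restrain the abaxial genes *ARF3* and *ARF4*. The signal was 16.6 in replicate 1 and 29.5 in replicate 2, a mean of 23.1 ± 9.13. It was above 42% of genes in replicate 1 and 46.6% in replicate 2, and was the one gene of the set under the array median in both arrays, a level that 41.6% of all genes passed. Its signal was higher in replicate 2 while its distance from the bound, given above, was smaller there. Its call also rested on the choice of reference genes. With *AGL61*, *AGL80* and *PLIM2b* added to them, the bounds were 60.4 and 47.8, *AGO7* was below both, and 39.7% of all genes passed. Control probe sets for *B. subtilis* transcripts gave bounds of 27.9 and 69.4, which 38.5% of all genes passed. *AGO7* was then below the bound in both arrays and *YAB5* in replicate 2, and the other 4 genes were above it.

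*JAG* and *AN* act in lamina growth, and both were higher in replicate 2. *JAG* (AT1G68480), a zinc finger gene that sustains growth of the distal lamina, gave 173.5 in replicate 1 and 303.5 in replicate 2, a mean of 238.5 ± 91.9. It lay above 82.0% of genes in replicate 1 and 90.7% in replicate 2, and its rank was 2404 and 1242. *AN* (AT1G01510) encodes a CtBP-like protein that sets leaf width through polar cell expansion. It gave 273.4 in replicate 1 and 386.2 in replicate 2, a mean of 329.8 ± 79.8, above 90.3% and 93.3% of genes. The fold of replicate 2 over replicate 1 was 1.75 for *JAG* and 1.41 for *AN*.

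Ordered by mean signal, the genes ran *YAB3*, *AN*, *JAG*, *PHV*, *YAB5* and *AGO7*. Probe sets differ in brightness, so this order describes signals and is no measure of transcript number. *AN* was above *JAG* in each array, although their values overlapped over the 2 arrays. *JAG* and *PHV* overlapped as well, and their order turned between the arrays. The lowest *YAB3* value, 387.9, and the highest *AN* value, 386.2, were almost equal. *PHV* and *YAB5* did not overlap, at 140.8 or more against 121.2 or less, and *YAB5* and *AGO7* were separated by 54.7 against 29.5.

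**Figure D3:**
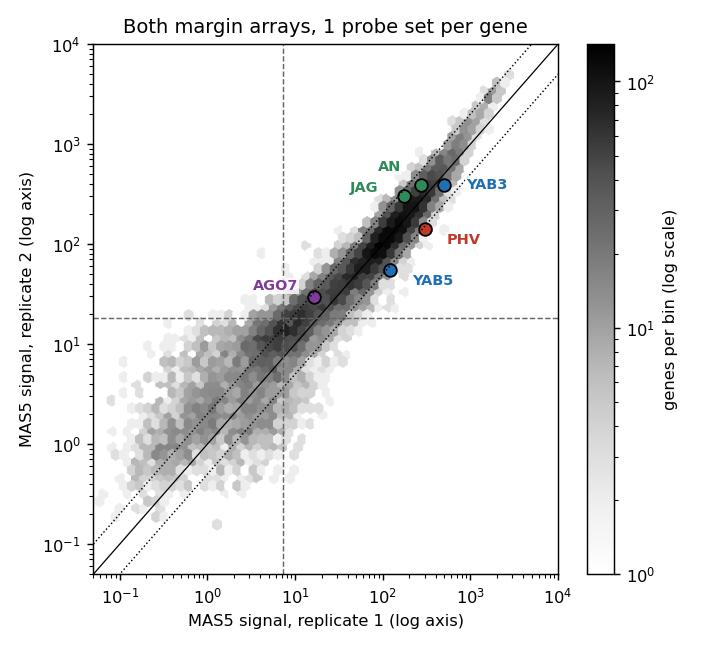
MAS5 signal of every gene in replicate 1 (horizontal, log axis) against replicate 2 (vertical, log axis), shaded by the number of genes per bin, with the 6 genes as coloured points. The solid line marks equal signal, the dotted lines a 2-fold difference and the broken lines the bounds. *YAB5* and *PHV* lie past the lower dotted line and the other 4 genes between the dotted lines.

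A ratio between the arrays is taken within a probe set, so differences in brightness between probe sets largely cancel. For a signal near background the ratio does depend on its level. With a pseudocount of 16 the log2 ratio of *AGO7* fell from 0.83 to 0.48, while that of *AN* went from 0.50 to 0.48. Of the 6 genes, 3 were higher in replicate 2 (*AGO7*, *JAG*, *AN*) and 3 lower (*YAB3*, *YAB5*, *PHV*), while 60.2% of the 8031 genes above background were higher. *YAB5* and *PHV* were at least 2-fold lower in replicate 2, which 2.93% of those genes were, and none of the 6 was at least 2-fold higher, which 8.38% were. With a pseudocount of 16 the log2 ratio of *YAB5* was -0.96, so that it was less than 2-fold lower, while *PHV* stayed past 2-fold. The median log2 ratio over the 8031 genes was 0.15, with 10% of genes below -0.58 and 10% above 0.93. *AGO7* at 0.83, *JAG* at 0.81, *AN* at 0.50 and *YAB3* lay within that range. *YAB5* and *PHV* lay outside it, with 1.87% and 2.2% of genes below them.

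Positions among all genes differed as well. The position in replicate 2 minus that in replicate 1 was -17.2 percentage points for *YAB5* and -14.6 for *PHV*. Over genes above background the median absolute difference was 4.02 points, with 10% of genes below -8.15 and 10% above 8.80. *YAB5* and *PHV* were outside those limits, and *JAG*, at 8.66 points, was just inside. *YAB3* had a difference of -3.11 points, *AN* of 3.03 and *AGO7* of 4.6.

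**Figure D4:**
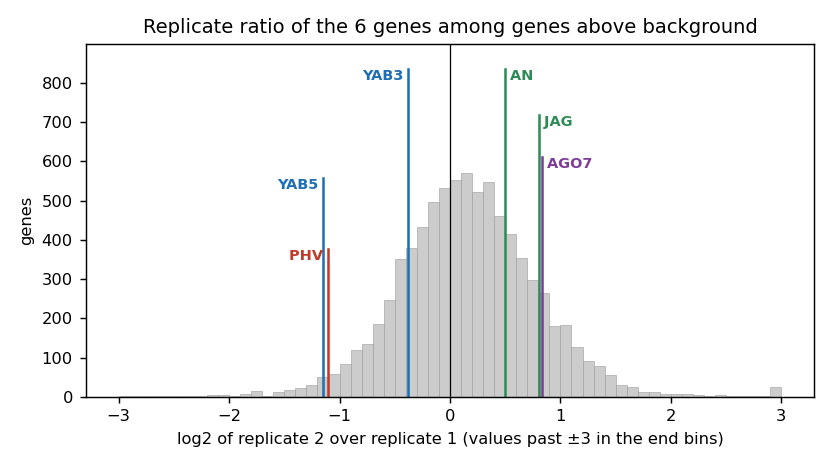
Histogram of the log2 ratio of replicate 2 over replicate 1 for the 8031 genes above background (horizontal axis, log2 units, vertical axis, number of genes), with the 6 genes as coloured lines. *YAB5* at -1.15 and *PHV* at -1.10 are in the lower tail, and *AN* at 0.50, *JAG* at 0.81 and *AGO7* at 0.83 are to the right of the median of 0.15.

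Markers of other cells also differed between the arrays. The mesophyll genes *RCA* and *LHCB4.1*, the measured markers of 5 listed, summed to 4102 in replicate 1 and 6600 in replicate 2. Their log2 ratios, 0.53 and 0.82, lay inside the range from -0.58 to 0.93 given above, and at least 99.66% of genes were below each of them in both arrays. The stomatal lineage genes *SPCH*, *MUTE* and *FMA*, 3 of 4 listed, summed to 494.0 and 283.0, with *SPCH* at 439.7 and 245.0, *MUTE* at 15.2 and 3.92 and *FMA* at 39.1 and 34.1. The trichome gene *TRY*, 1 of 3 listed, gave 32.4 and 68.8. The shoot meristem gene *CLV3*, 1 of 4 listed, was below the bound in both arrays at 5.32 and 1.69, and no listed marker of the epidermis or vasculature had a named probe set. In replicate 2, *SPCH* and *MUTE* were thus lower, like *YAB5* and *PHV*, while *FMA* of the same lineage hardly differed (log2 ratio -0.20). The log2 ratio of *SPCH*, -0.84, lay below that range. *MUTE*, at -1.96, was above the bound in replicate 1 and below it in replicate 2. The mesophyll genes and *TRY* were higher, like *JAG*, *AN* and *AGO7*, as were 60.2% of all genes above background. The log2 ratio of *TRY*, 1.08, lay above that range. Like *AGO7*, *TRY* was not above the wider bound, the *B. subtilis* bound or the array median in both arrays. The bound was also higher in replicate 2, at 18.3 against 7.21. The part of tissue makeup and of RNA integrity in these differences was not tested.

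The wider program was covered in part. Of 87 genes of polarity, lamina growth, margin shape and margin suppression listed by role, the annotation used here assigned a probe set of their own to 17, including the 6 above. It names no gene for 8794 of the 22810 probe sets. The other 70, among them *PHB*, *REV*, *AS2*, *FIL*, *KAN1*, *PRS*, *WOX1* and the *TCP* genes that miR319 targets, were not analysed here. Of the 11 further measured genes, 9 were above background in both arrays, against 60.1% of all genes.

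Among abaxial genes the third one measured was *INO*, a YABBY gene of the outer ovule integument. It gave 8.28 in replicate 1 and 15.0 in replicate 2. *INO* was at 1.15 times the bound in replicate 1 and at 0.82 times in replicate 2, where the bound was higher. *INO* thus differed from *YAB3* and *YAB5*, which were above the bound in each array, the lowest being *YAB5* in replicate 2 at 2.99 times the bound. *SEU*, which encodes a partner of the LEUNIG corepressor that interacts with YABBY proteins, gave 234.2 and 172.0. It was lower in replicate 2, but its log2 ratio of -0.45 lay within the range from -0.58 to 0.93 given above.

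Of the 7 measured lamina growth genes, all were above background, as were 60.1% of all genes. *NUB*, the close relative of *JAG* that acts redundantly with it, gave 88.4 in replicate 1 and 82.2 in replicate 2. *NUB* hardly differed between the arrays (log2 ratio -0.10), whereas *JAG* had a ratio of 0.81. *ARL*, a regulator of organ size through cell expansion, gave 319.9 and 274.8, and *SPT*, a bHLH repressor of leaf growth, gave 82.1 and 75.5. AT4G36860 and AT3G24150, the remaining 2, gave means of 124.9 ± 8.07 and 86.1 ± 9.89. These 5 genes were slightly lower in replicate 2, by 1.07-fold to 1.18-fold, and *JAG* and *AN* were higher.

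Of the *NGA* genes that suppress margin growth and are targeted by the transgene, *NGA2* gave 98.7 and 92.6. *NGA3* gave 28.7 and 5.14 and was below the bound in replicate 2, and *NGA1* (29.5 and 21.5) and *NGA4* (11.2 and 23.2) were above it in both. In replicate 2, *NGA1* was at 1.18 times the bound and *NGA4* at 1.27 times. Like *AGO7*, both were not above the wider bound, the *B. subtilis* bound or the array median in both arrays.

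A further 7 genes were picked by symbol from the probe annotation, *TCP15* after its values were seen. Of these, 6 were above background, against 60.1% of all genes. *SE*, which encodes a zinc finger protein of microRNA processing and is needed for adaxial identity, gave 165.1 and 213.0. *PGY1*, a ribosomal protein gene whose mutants enhance the adaxial defects of *as1*, gave 1610 and 2365. *ULT1*, a SAND domain gene linked to polarity of the gynoecium, gave 122.4 and 246.3, a 2.01-fold higher signal in replicate 2. *LCR*, an F-box gene of leaf curling, gave 129.4 and 139.5, and *LEP*, an AP2/ERF gene of the petiole, gave 24.5 and 30.5. *TCP15*, a *TCP* gene that miR319 does not target, gave 167.7 and 146.2. *SPL*, a gene of sporogenesis, was below both bounds at 1.35 and 1.72.

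**Figure D5:**
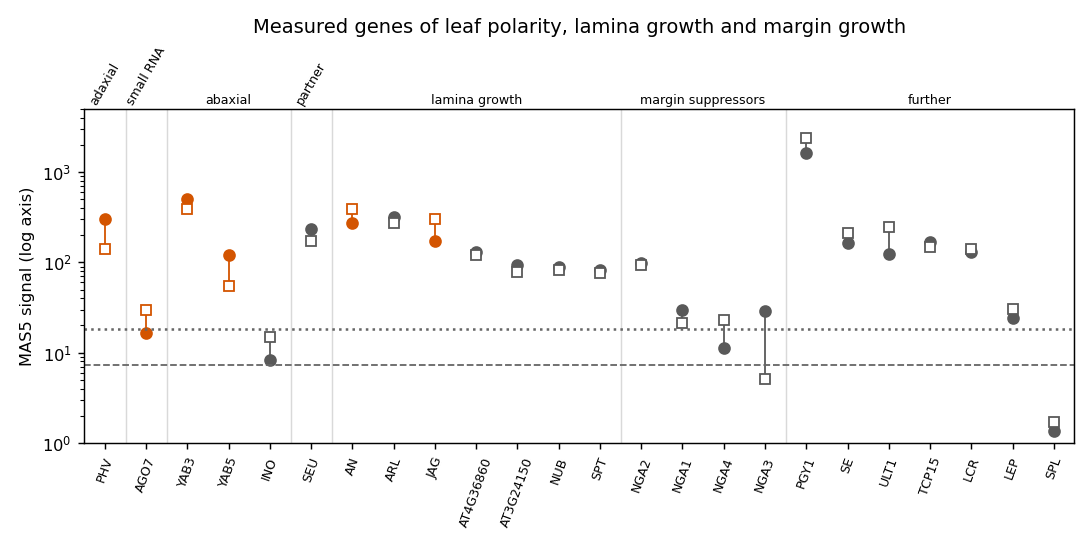
MAS5 signal (log axis) of the measured genes of leaf polarity, lamina growth and margin suppression and of 7 further genes, in replicate 1 (filled circles) and replicate 2 (open squares), with the 6 genes described here in orange and the bounds of replicate 1 (broken) and replicate 2 (dotted). *INO*, *NGA3* and *SPL* fall below the bound of replicate 2.

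The genes with the most similar signals were found by the Euclidean distance of log2 signals over the 2 arrays. For *PHV* they were AT2G45810 (distance 0.054) and the wall gene *XTH16* (0.071), which gave 306.0 and 147.6. For *YAB5* they were AT3G58760 (0.041) and AT3G50620 (0.053). With 2 arrays this likeness is loose, since between 147 genes for *PHV* and 481 for *AN* lay within a distance of 0.5. The nearest genes were AT3G23700 and AT1G18070 for *YAB3*, AT4G21170 and AT2G33260 for *AGO7*, AT5G53650 and AT3G07790 for *JAG*, and AT2G29210 and AT1G04300 for *AN*.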

How the data were processed

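Margins of 1 group were measured on 2 ATH1 arrays, 1 per biological replicate, which the labels number 1 and 2. The authors deposited 1 linear intensity per probe set, obtained and normalized with MAS5 (R 2.7.2 in the submitters' processing notes), with no detection calls or raw probe values. The labels name polyadenylated RNA, biotin label and an RNeasy extraction. Of 22810 probe sets, 13513 have 1 gene in the platform annotation, 503 have several and 8794 none. Symbols came from RefSeq of TAIR10.1, matched for 13436. Where a gene had several probe sets, the brightest on average stood for it, and no pseudocount was added. The bound was the 95th percentile of *MGH3*, *ANX1*, *ANX2*, AT5G07230, *EXPA7* and *EXPA18*. Positions are percentages of genes with a lower signal. Ratios are log2 of replicate 2 over replicate 1.

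The members, lists and reference genes were chosen with earlier results of these data known. Named are the 6 members, the measured genes of the lists and the 2 nearest genes of each member by log2 distance. Alternatives were other bounds, quantile normalization, trimmed mean scaling, a pseudocount of 16, the lowest probe set, other ranked sets and single arrays. Ratio and position steps were tested on simulated data. Scripts ran in Python 3.11.15 with pandas 2.3.3 and numpy 2.4.6, and figures were drawn with matplotlib 3.10.9. The number of arrays limits the precision. Promoter, protein and microRNA sequences were not used here.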

Additional observations from a re-analysis of the deposited data

How the results depend on the processing

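All 6 genes remained above background with the 90th percentile (62.5% of all genes passed) or the highest (58.4%) of the reference genes as the bound, without the root genes (77.8%) or the pollen genes (58.8%), with either array alone and after quantile normalization. The count was also 6 with the highest of *CLV3*, *MUTE* and *INO* as the bound (57.4%), chosen after seeing the data. It was 5 with the wider reference list (39.7%) and with the median of all probe sets (41.6%), where *AGO7* was below. With the *B. subtilis* control probe sets (bounds of 27.9 and 69.4) it was 4, without *AGO7* and *YAB5*, and 38.5% of all genes passed. The median position of the 6 genes was 85.0% of genes below, and among all probe sets it was 80.8%. All probe sets had a median signal of 50 in both arrays, above the 33.2 and 36.7 of the 13356 genes. Positions among genes are thus higher than among all probe sets. Among genes above background the median position was 75.2%. Among all genes it was 86.1% in replicate 1 and 83.9% in replicate 2.

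The sign of each gene's log2 ratio was kept under quantile normalization, trimmed mean scaling and a pseudocount of 16. The ratio ranged from -1.27 to -0.96 for *YAB5* and from -1.23 to -1.02 for *PHV*. With the pseudocount *YAB5* was therefore less than 2-fold lower in replicate 2. The median log2 ratio of the 6 genes was 0.062 and turned to -0.079 under quantile normalization and to -0.066 under trimmed mean scaling. The signals and ratios were the same with the lowest probe set of each gene, since these genes have 1 each, and the median position was then 85.3%. A single array gives no ratio. No paired analysis was possible because there is 1 group.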
